A study of Mus musculus with 45 samples.

Results

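Excitation-contraction coupling is the step by which an electrical signal at the muscle membrane becomes a rise in calcium inside the fibre. The 37 genes described here encode its voltage sensor, release channel, calcium store, calcium pumps and the surface ion channels of muscle. They were chosen by name for these functions, with earlier results of these data known, out of 35675 genes in the files. All 37 were found, and all 37 were among the 17325 genes that passed the filter on low counts and were tested. The series profiled mouse cells of 1 genotype, Tg:Pax7-nGFP/C57BL6;DBA2, which carries a nuclear green fluorescent reporter of the muscle stem cell gene Pax7, by bulk RNA-seq in 15 groups of 3 libraries.

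Mouse embryonic fibroblasts (MEFs) with a doxycycline-inducible MyoD, a transcription factor that drives muscle differentiation, were sampled untreated and after 2, 4, 6, 8 and 10 days of doxycycline. The drug was given alone, which the labels describe as yielding myotubes, or together with small molecules abbreviated F/R/C, which the labels describe as yielding muscle fibres and progenitor cells. The reference groups were established induced myogenic progenitor cell (iMPC) cultures kept in medium with F/R/C after 13 days of doxycycline and F/R/C, iMPCs sorted for Pax7-GFP, untreated primary myoblasts from skeletal muscle, and myoblasts sorted for Pax7-GFP. Nothing in the labels says that replicates came from separate animals or cultures, so p-values measure the spread between these libraries, which may be technical.

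In skeletal muscle the action potential is carried by the sodium channel Scn4a into the transverse tubules, where the L-type calcium channel subunit Cacna1s senses the voltage and opens the ryanodine receptor Ryr1 of the sarcoplasmic reticulum by direct contact. Calcium leaves a store buffered by calsequestrin (Casq1 in fast fibres, Casq2 in slow and cardiac muscle) and is pumped back by Atp2a1 and Atp2a2. Adult fast fibres are known for high levels of Casq1, of the cytosolic calcium buffer Pvalb and of the chloride channel Clcn1, while embryonic muscle uses more of the developmental forms, such as Ryr3 and a Cacna1s channel that lacks 1 exon.

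Library totals ran from 15.6 to 36.3 M reads, and the bulk iMPC libraries (33.2 to 36.3 M) were the deepest group. Several libraries stood apart. MEF replicate 1 had a summed level of 12 differentiated muscle markers of 173 CPM (counts scaled to a common library size), against 55.1 and 79.1 in the other MEF libraries. Bulk myoblast replicate 3 had 1165 CPM of these markers, against 33394 and 19271 CPM in replicates 1 and 2. Replicate 2 of MyoD alone was highest of its 3 libraries for them on all 5 days. It was at 45537 against 29370 and 26995 CPM on day 4, and at 36213 against 16484 and 10249 CPM on day 10. Bulk iMPCs, both sorted groups, bulk myoblast replicate 2 and MEF replicate 3 also differed from the treated libraries in the way reads were divided between transcripts. The transcript Bin1-203 held from 17.1% to 29.3% of the TPM (a level scaled by transcript length as well as library size) of Bin1 in the bulk iMPC and sorted libraries and at most 0.412% in the 30 treated time-course libraries. It held 17.5% in MEF replicate 3 and 0% in the other MEF libraries. Cell source and library set cannot be told apart in comparisons with those groups. In bulk samples, fewer muscle cells and less RNA per muscle cell cannot be told apart either.

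Nearly the whole set was higher after MyoD induction than in untreated fibroblasts. After 10 days of MyoD alone 32 of the 37 genes were higher than in untreated MEFs by edgeR's quasi-likelihood test (adjusted p under 0.05 and at least 2-fold), where 14.3% of all genes tested were higher. The other 5 (Asph, Pvalb, Clcn1, Kcnj2 and Mtm1) were not called. The median log2 difference was 4.94, or 4.17 with genes at 0 reads in MEFs set to their lower bound, against 0.01 over all genes. Under F/R/C, 32 genes were again higher on day 10, against 19.0% of all genes, and 1 was lower, against 15.8%. The median was 6.10, or 5.56 with bounds, against 0.08 over all genes. These comparisons share the MEF libraries. Without MEF replicate 1 the calls for Kcna7, Kcne1l and Stim1 on day 10 under MyoD alone were lost (adjusted p = 0.058, 0.12 and 0.098), and without replicate 2 in every group 25 genes were called there. Without MEF replicate 3 the Kcne1l call was lost (adjusted p = 0.083), and 31 genes were called under MyoD alone and 33 under F/R/C.

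The sodium channel and the voltage sensor were at or near 0 reads in MEFs. Scn4a had 0 reads in all 3 MEF libraries and 39.3, 78.6 and 49.7 CPM on day 10 under MyoD alone, at least 363-fold higher against a floor of 3 reads per library. With the small molecules it reached 51.8, 71.3 and 150 CPM, at least 592-fold higher. Cacna1s was at 0.747, 0 and 0 CPM in MEFs and at 411, 880 and 279 CPM on day 10 under MyoD alone (log2 difference 10.87, SE 1.03, adjusted p = 1.6e-09). Kcnj11, a potassium channel pore, had 1 read in the 3 MEF libraries and 2258 on day 10 under MyoD alone, a ratio scaled for library size of 1924 with an exact 95% counting interval from 345 to 76017. Casq1 rose as steeply under F/R/C (log2 difference 11.11, SE 1.17, adjusted p = 5.1e-09). Sln, a small inhibitor of the calcium pump, had 0 reads in MEFs and 18.0, 40.6 and 16.1 CPM in the F/R/C cultures on day 10, at least 162-fold higher. The gene whose summed level fell was Asph, whose locus encodes an aspartyl hydroxylase of many tissues as well as junctin, an anchor of the release channel. Its short transcripts, in the size range of junctin, did not fall. They summed to 0.962, 1.08 and 1.60 TPM in MEFs and to 24.0, 24.1 and 56.5 TPM under F/R/C on day 10. Asph was at 348, 291 and 315 CPM in MEFs and at 117, 80.6 and 150 CPM in the F/R/C cultures on day 10 (log2 difference -1.46, SE 0.21, adjusted p = 9.9e-07), with no overlap between the groups. The pump gene Atp2a2 had the smallest called rise under F/R/C (log2 difference 1.22, SE 0.25, adjusted p = 1.7e-04), from 365, 376 and 413 CPM to 788, 897 and 1000 CPM. These levels sum a muscle form and a form of other tissues, whose shares are given below.

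**Figure D1:**
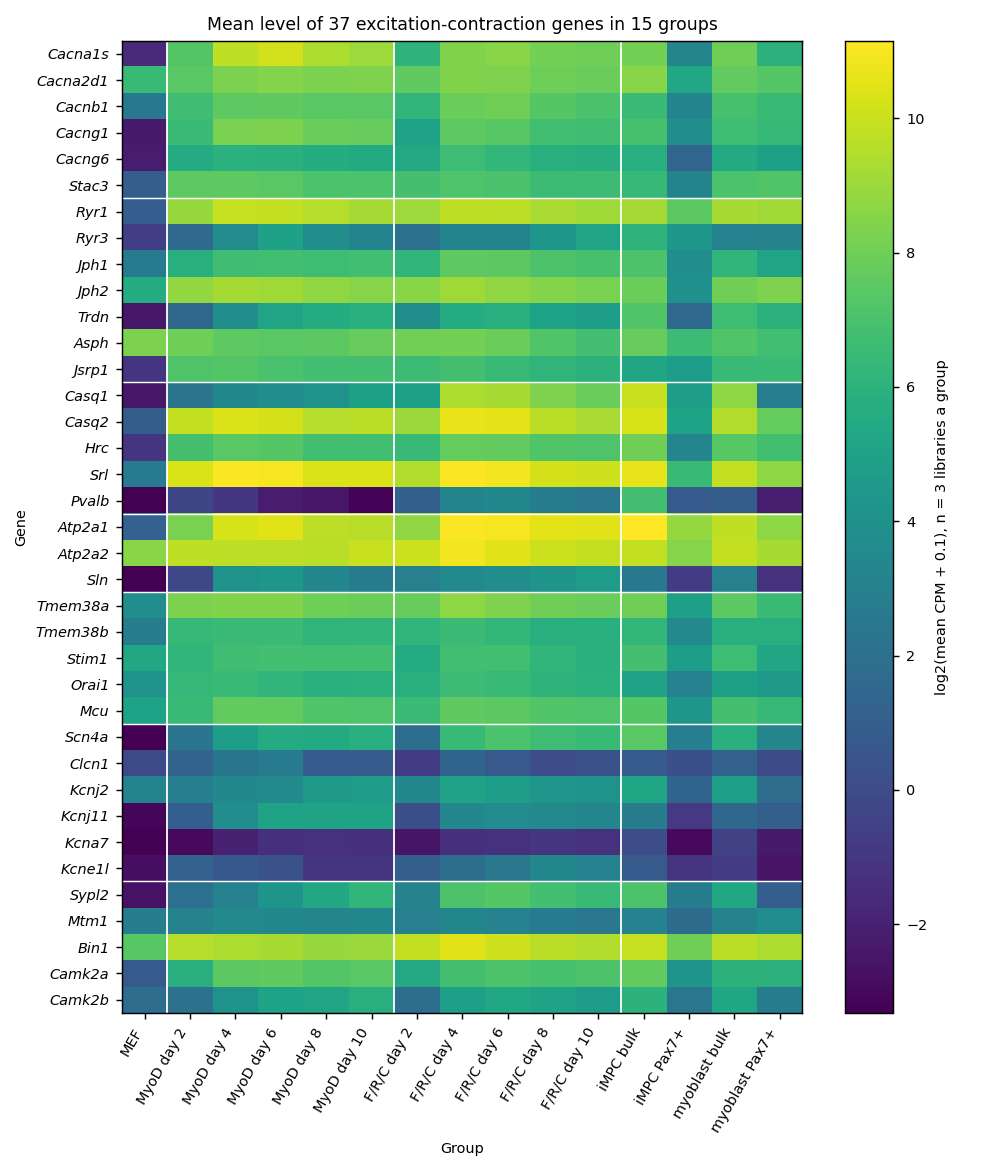
Each cell is the log2 of a gene's mean CPM (plus 0.1) over the 3 libraries of a group, with 37 genes as lines grouped by role and the 15 groups as columns. The MEF column is brightest for Atp2a2, Asph and Bin1 and darkest for genes such as Scn4a, Sln and Pvalb, and the sorted iMPC column is darker than the bulk iMPC column for all 37 genes.

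With F/R/C added to MyoD a few genes differed strongly from MyoD alone and most of the set was not called. Averaged over the 5 days, 8 of 37 genes differed, 4 higher and 4 lower, where 22.1% of all genes tested differed. The set was thus called about as often as genes in general. The median log2 difference was -0.01, against -0.03 over all genes. Higher with F/R/C were Pvalb, Casq1, Kcne1l and Sypl2. Lower were Clcn1, Cacna1s, Kcnj11 and Cacng1. Averages over days treat the libraries of different days as independent, although same-numbered libraries of an arm deviated together between days 4 and 10. Under MyoD alone the correlations there ran from 0.32 to 0.58. The p-values of all averages over days in the main fit do not allow for this and may be too small. By day, 3 genes differed on day 2 (4.93% of all genes did), 5 on day 4 (13.2%), 5 on day 6 (15.4%), 3 on day 8 (18.7%) and 7 on day 10 (23.3%). Counted by libraries that do not overlap, 5 genes lay above and 4 below MyoD alone on day 2 (18.0% and 19.8% of all genes), 13 and 2 on day 4 (22.9% and 23.4%), 10 and 6 on day 6 (23.1% and 25.7%), 5 and 3 on day 8 (21.8% and 25.0%) and 5 and 3 on day 10 (22.0% and 25.9%). Without replicate 1 the calls numbered 1 on day 2, 3 on day 6 and 4 on day 10, and without replicate 2 every day 2 call was lost and 3 were made on day 6 and 3 on day 10.

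Other RNA in the cultures moved with the treatment. Summed over 12 fibroblast markers, all of them detected, the libraries ran from 1447 to 5470 CPM under F/R/C and from 14005 to 30529 CPM under MyoD alone on day 10, with no overlap. Single markers went both ways, since on day 10 Thy1, Col1a2 and Fn1 were lower and Lum higher, and averaged over days 3 of the 12 were lower and 4 higher, with a median log2 difference of 0.42. The 12 cell cycle markers ran from 585 to 1290 CPM under F/R/C against 60.3 to 521 CPM. The 12 differentiated muscle markers overlapped, at 13694 to 23137 CPM against 10249 to 36213 CPM, and none of the 12 was called in the average over days. On day 10 the 6 smooth muscle markers summed to 1250 to 2023 CPM under F/R/C and to 3062 to 7857 CPM under MyoD alone. The 6 cardiac markers were scarce and summed to 19.1 to 52.2 against 1.05 to 10.95 CPM, where 4 of the 5 tested (Myh6, Nppa, Nkx2-5 and Tnni3) were called higher. Casq2, Atp2a2 and Sln are also genes of cardiac muscle. Myod1 itself, whose reads can come from the induced copy and the native gene, averaged 2625 ± 837 CPM (SD, n = 3) with MyoD alone and 959 ± 344 CPM under F/R/C on day 2, and 1129 ± 777 against 792 ± 193 CPM on day 10. The part of these differences in the results below was not tested.

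**Figure D2:**
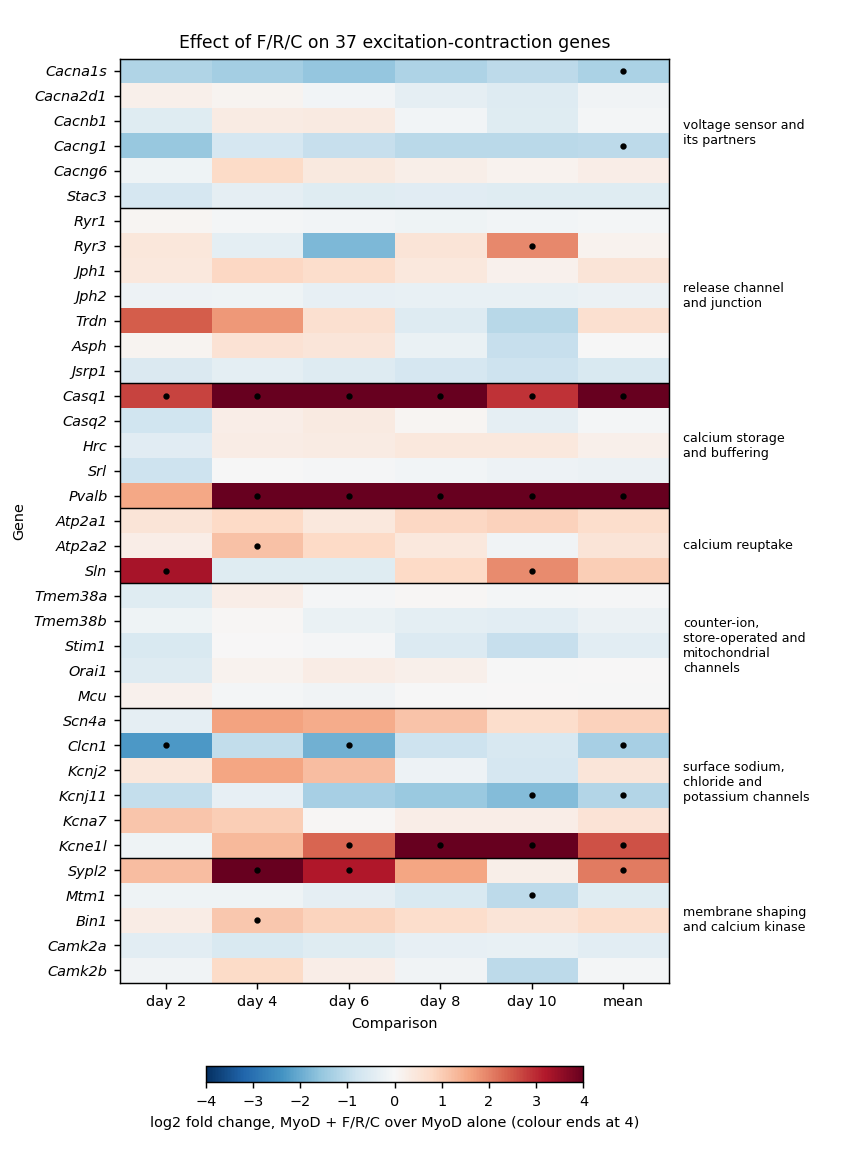
Colour gives the log2 difference of MyoD with F/R/C over MyoD alone for each of the 37 genes on each day and averaged over days, and a dot marks genes called by edgeR's quasi-likelihood test (adjusted p under 0.05, at least 2-fold). Casq1 carries a dot in every column, while the lines of Ryr1, Mcu, Orai1 and Tmem38a stay pale and carry none.

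In the voltage sensor complex 2 genes were lower with F/R/C. Cacna1s, the pore and voltage sensor of the L-type channel, was at 682, 1127 and 769 CPM on day 4 under MyoD alone and at 299, 408 and 299 CPM under F/R/C. On day 10 it was at 411, 880 and 279 CPM against 156, 284 and 325 CPM. The libraries did not overlap on days 2, 4, 6 and 8 and overlapped on day 10. Averaged over days, Cacna1s was lower under F/R/C (log2 difference -1.28, SE 0.29, adjusted p = 3.0e-04), although no single day passed the threshold. Cacng1, the gamma subunit that limits current through the channel, went the same way. It was at 74.3, 110 and 92.8 CPM on day 2 under MyoD alone against 25.8, 45.1 and 25.1 CPM under F/R/C, and at 170, 358 and 136 against 37.7, 79.1 and 197 CPM on day 10 (average log2 difference -1.05, SE 0.29, adjusted p = 0.0021). Its libraries were apart on days 2, 4 and 6 and overlapped afterwards. Without replicate 1 the Cacng1 difference was -0.95, under 2-fold, and without replicate 2 it was -0.78 (adjusted p = 0.082). Stac3, an adaptor needed for the sensor to open the release channel, was lower by less than 2-fold (log2 difference -0.48, SE 0.18, adjusted p = 0.023). The auxiliary subunits Cacna2d1, Cacnb1 and Cacng6 overlapped between the arms on all 5 days.

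The promoter window of Cacna1s is shown because the gene was lower with F/R/C and its window holds a form of the E-box, the motif bound by MyoD and related factors. RefSeq windows of 300 bases (250 before the start and 50 after) on GRCm38.p6 were given for 23 of the 37 genes, and 9 of these 23 (39.1%) held CAGCTG, which reads the same on both strands. Counted by window, 10 of the 28 windows of these genes (35.7%) held it, against 16.3% of all 32851 windows. The wider pattern CANNTG, which includes CAGCTG, was in 19 of the 23 genes (82.6%). By window it was in 22 of their 28 (78.6%) and in 72.3% of all windows. A match describes letters only. The 250 bases before the start of Cacna1s (chr1:136052561-136052810, plus strand) and of Casq1 (chr1:172219896-172220145, minus strand) and Sypl2 (chr3:108226600-108226849, minus strand), which were higher with F/R/C, are given 5′ to 3′ with CAGCTG in capitals. It begins 123, 195 and 239 bases before the start, respectively.
Cacna1s: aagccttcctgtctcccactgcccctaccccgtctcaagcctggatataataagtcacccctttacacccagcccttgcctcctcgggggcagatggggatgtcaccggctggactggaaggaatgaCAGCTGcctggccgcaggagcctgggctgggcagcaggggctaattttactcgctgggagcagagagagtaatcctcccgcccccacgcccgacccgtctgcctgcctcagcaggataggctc
Casq1: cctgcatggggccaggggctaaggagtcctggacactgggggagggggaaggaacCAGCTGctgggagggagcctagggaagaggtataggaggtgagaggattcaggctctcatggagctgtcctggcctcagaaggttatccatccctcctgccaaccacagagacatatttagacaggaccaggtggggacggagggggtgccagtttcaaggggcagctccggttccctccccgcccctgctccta
Sypl2: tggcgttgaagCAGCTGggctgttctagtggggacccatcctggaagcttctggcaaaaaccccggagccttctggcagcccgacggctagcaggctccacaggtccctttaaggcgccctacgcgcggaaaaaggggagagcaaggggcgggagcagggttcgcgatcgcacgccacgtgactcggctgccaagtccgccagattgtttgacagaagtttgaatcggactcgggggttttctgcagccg
The windows of Kcne1l, which was higher, and of Atp2a1, Hrc, Jph2, Kcnj2 and Orai1, which were not called in the average, also held CAGCTG. Those of Pvalb and Clcn1 did not. The motif was present in genes that were higher and not called, and among the lower genes in Cacna1s alone. For Cacng1 and Kcnj11 no match was found or no window was given. A link between the motif and the direction of change was not tested.

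The release channel itself did not separate the arms. Ryr1 was at 831, 1178 and 779 CPM on day 4 under MyoD alone and at 456, 962 and 358 CPM on day 10, while with F/R/C day 10 gave 458, 629 and 571 CPM. The arms overlapped on all 5 days. Ryr3, the form that embryonic muscle also uses, was at 28.1, 36.4 and 28.5 CPM on day 6 under MyoD alone against 4.78, 8.97 and 13.3 CPM under F/R/C, with no overlap. The order was opposite on day 10, when MyoD alone gave 8.10, 11.3 and 8.50 CPM and F/R/C gave 16.5, 50.1 and 39.0 CPM. On day 10 Ryr3 was called higher with F/R/C (log2 difference 1.92, SE 0.77, adjusted p = 0.045). Leaving out any 1 of the replicate numbers ended that call (adjusted p from 0.09 to 0.14). On day 6 it was not called, and with the replicate number as a block it was lower (log2 difference -1.84, adjusted p = 0.011).

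The effect of F/R/C was lower on day 10 than on day 2 for Trdn, which anchors the release channel to calsequestrin, and for the summed products of the Asph locus. Trdn (triadin) was at 2.68, 3.15 and 2.38 CPM on day 2 under MyoD alone against 14.4, 18.7 and 11.1 CPM under F/R/C. On day 10 it was at 38.8, 116 and 18.8 CPM against 18.9, 22.6 and 39.1 CPM. The libraries were apart on day 2 and overlapped on day 10, where the log2 difference was -1.11 (SE 0.77, adjusted p = 0.26) after 2.43 (SE 0.84, adjusted p = 0.069) on day 2. With the replicate block Trdn was called higher on day 2 (adjusted p = 0.047). The effect of F/R/C on day 10 minus that on day 2 was -3.54 (SE 1.14, adjusted p = 0.047). It was lost without replicate 1 (adjusted p = 0.31) or replicate 2 (-2.32, adjusted p = 0.38), with RLE size factors (adjusted p = 0.051) and with no filter on low counts (adjusted p = 0.075). Asph was at 242, 269 and 232 CPM against 256, 274 and 271 CPM under F/R/C on day 2, and at 171, 170 and 321 CPM against 117, 80.6 and 150 CPM on day 10. Its F/R/C libraries were above those of MyoD alone on days 4 and 6 and below them on day 10. The change in its effect was -1.04 (SE 0.29, adjusted p = 0.026), and leaving out any 1 replicate number (adjusted p from 0.15 to 0.16) or changing the tool, scaling, filter or groups fitted ended that call, the value with DESeq2 being -0.98. In this comparison of days 4 of 37 genes were called, against 6.01% of all genes. The junctophilins Jph1 and Jph2, which tether the reticulum to the tubule, and Jsrp1 were not called on any day. The F/R/C libraries of Jph1 lay above those of MyoD alone on days 4 and 6, and those of Jph2 lay below on day 6. Jsrp1 was lower over the days by less than 2-fold (log2 difference -0.60, SE 0.21, adjusted p = 0.014).

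Among the calcium store proteins, Casq1, the calsequestrin of fast fibres, was low under MyoD alone and far higher with F/R/C. With MyoD alone it was at 5.45, 4.87 and 3.46 CPM on day 2, at 12.4, 10.9 and 8.53 CPM on day 4, and at 29.1, 50.4 and 13.3 CPM on day 10. Under F/R/C it was at 31.3, 35.8 and 23.4 CPM on day 2, at 514, 829 and 628 CPM on day 4, and at 132, 156 and 402 CPM on day 10. Every F/R/C library was above every MyoD library on all 5 days, which held for 5.54% of all genes. The difference was 2.71 on the log2 scale on day 2, peaked at 5.95 (SE 0.84, adjusted p = 5.3e-06) on day 4, was 5.52 on day 6 and 4.21 on day 8, and was 2.89 (SE 0.72, adjusted p = 0.002) on day 10. Averaged over days it was 4.26 (SE 0.35, adjusted p = 4.9e-12), and from 3.95 to 4.56 under the alternatives. The day 2 call was lost without replicate 1 or replicate 2 (adjusted p = 0.23 for both) and the day 10 call without replicate 1 (adjusted p = 0.055).

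Casq2, Hrc and Srl, which also bind calcium in the reticulum, overlapped between the arms on all 5 days. On day 4 Casq2 was at 1111, 1842 and 1109 CPM under MyoD alone and at 1328, 2084 and 1474 CPM under F/R/C. Casq1 was thus the calsequestrin that differed, and Casq2 was not called on any day.

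Pvalb, the soluble buffer of fast fibres, was near the limit of detection under MyoD alone and low but present with F/R/C. It was at 0.876, 0.86 and 0.36 CPM on day 2 under MyoD alone and at 0, 0 and 0.0349 CPM on day 10. Under F/R/C it was at 3.35, 1.27 and 1.47 CPM on day 2, at 9.55, 4.92 and 18.0 CPM on day 6, and at 2.78, 2.63 and 11.2 CPM on day 10. The arms did not overlap on any of the 5 days. Averaged over days the log2 difference was 5.38 (SE 0.47, adjusted p = 3.9e-11). On day 10 the 3 MyoD libraries held 1 read in all against 442 reads with F/R/C, a ratio, scaled for library size, of 421 with an exact 95% counting interval from 75.1 to 16661. Bulk iMPCs had 125, 140 and 71.6 CPM, so the F/R/C cultures were far below them.

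**Figure D3:**
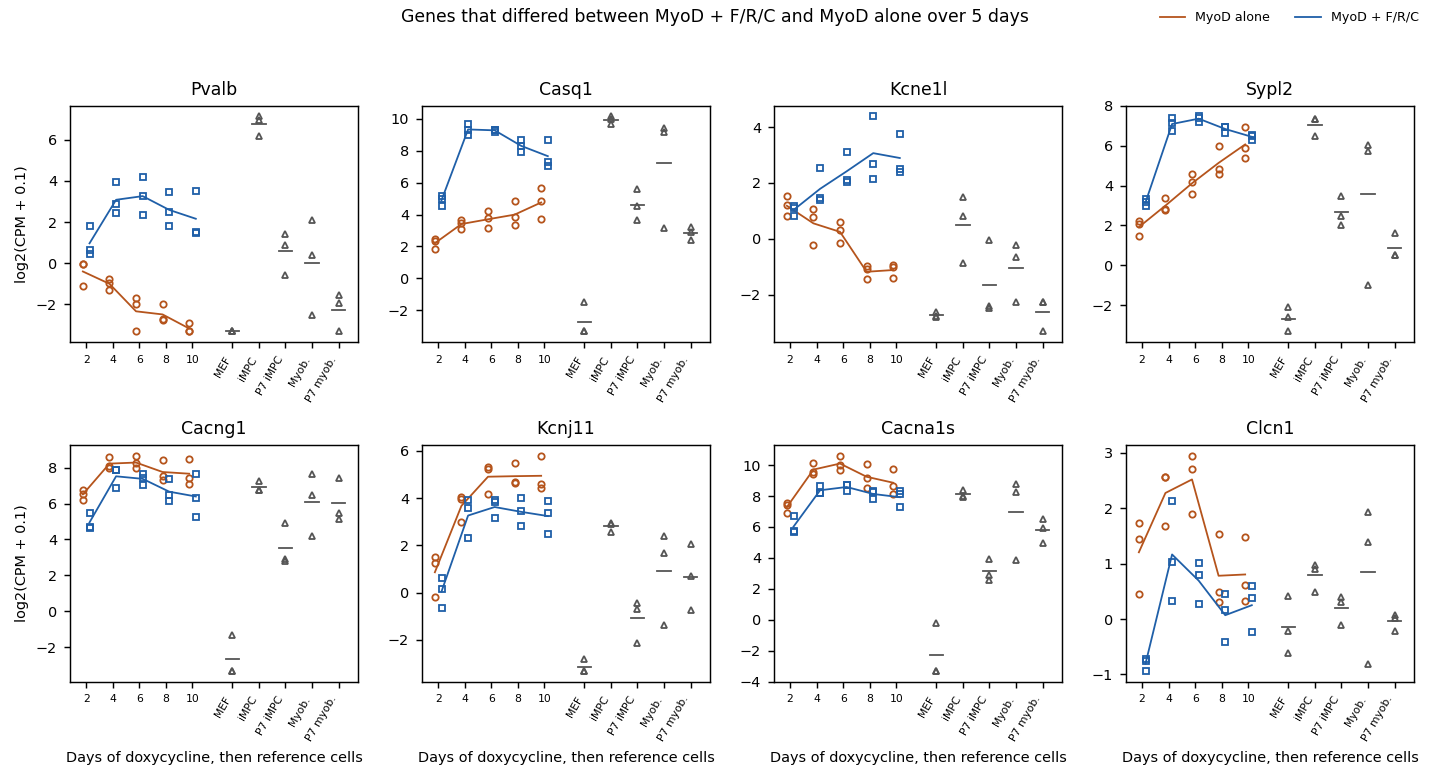
Points are single libraries on a scale of log2(CPM + 0.1), lines join the mean of these log values by day for MyoD alone (circles) and MyoD with F/R/C (squares), and triangles with a bar are the 5 reference groups. Casq1 and Pvalb separate on every day, Sypl2 separates on days 2 to 8 and meets on day 10, and Cacna1s, Cacng1, Kcnj11 and Clcn1 lie lower with F/R/C.

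Among the calcium pumps and their inhibitor, Atp2a2 and Sln were each called on single days. Atp2a2, the pump of slow and non-muscle cells, was at 851, 950 and 749 CPM on day 4 under MyoD alone and at 1587, 2309 and 1805 CPM under F/R/C (log2 difference 1.16, SE 0.25, adjusted p = 0.0011). By day 10 it was at 825, 1378 and 738 against 788, 897 and 1000 CPM. Over the 5 days its difference was 0.51 (SE 0.11, adjusted p = 2.4e-04), under 2-fold. Atp2a1, the fast-fibre pump, was at 994, 1356 and 1405 CPM on day 4 under MyoD alone against 1429, 2234 and 2903 CPM under F/R/C, with no overlap on that day alone, and its average difference of 0.70 (SE 0.32, adjusted p = 0.061) was not called. Sln was early under F/R/C. On day 2 it was at 0.778, 0.918 and 0.674 CPM under MyoD alone and at 10.4, 10.1 and 2.90 CPM under F/R/C (log2 difference 3.30, SE 0.78, adjusted p = 0.0066). On day 4 the arms overlapped at 14.1, 23.4 and 14.3 against 12.1, 15.4 and 9.42 CPM, and on day 10 Sln was again higher with F/R/C (18.0, 40.6 and 16.1 against 5.55, 9.91 and 4.88 CPM, log2 difference 1.88, SE 0.69, adjusted p = 0.03). Both Sln calls were lost without replicate 1 or replicate 2 (adjusted p from 0.11 to 0.21). Averaged over days Sln missed the 2-fold limit by little (log2 difference 0.999, SE 0.31, adjusted p = 0.0058) and passed it with DESeq2 (1.05), RLE size factors (1.05), no filter (1.06), only the groups compared (1.05) and without replicate 2 or 3 (1.03 and 1.10).

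The counter-ion, store-operated and mitochondrial channels did not separate the arms. Tmem38a and Tmem38b, potassium channels of the reticulum, Stim1 and Orai1, the sensor and pore of store-operated entry, and Mcu, the mitochondrial calcium channel, overlapped between the arms on all 5 days and none was called. Their mean levels on day 10 ran from 60.1 to 241 CPM under MyoD alone and from 56.1 to 230 CPM under F/R/C. Stim1 had the largest average difference of the 5, a log2 difference of -0.42 (SE 0.22, adjusted p = 0.094).

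The surface channels moved in both directions. Kcne1l, an accessory subunit of potassium channels, differed late. It was at 2.2, 1.66 and 2.79 CPM on day 2 under MyoD alone and at 2.06, 1.64 and 2.16 CPM under F/R/C, where the arms overlapped. On day 10 it was at 0.417, 0.396 and 0.279 CPM against 5.17, 5.6 and 13.5 CPM, with no overlap (log2 difference 4.47, SE 0.76, adjusted p = 3.5e-05). The change in the effect from day 2 to day 10 was 4.65 (SE 0.99, adjusted p = 0.0059), with adjusted p of 0.077 and 0.08 without replicates 1 and 2. Averaged over days Kcne1l was higher by 2.56 (SE 0.31, adjusted p = 2.2e-08). Kcnj11, the pore of the channel that couples potassium conductance to ATP, was at 0.778, 2.75 and 2.29 CPM on day 2 and at 24.5, 54.9 and 21.6 CPM on day 10 under MyoD alone. Under F/R/C day 10 gave 5.49, 10.2 and 14.7 CPM, below every MyoD library (log2 difference -1.73, SE 0.64, adjusted p = 0.029). That call was lost without replicate 1 (adjusted p = 0.11), without replicate 2 (adjusted p = 0.33) and with no filter on low counts (adjusted p = 0.053). Its average over days was -1.17 (SE 0.29, adjusted p = 7.6e-04).

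Clcn1, the chloride channel that stabilises the resting membrane, was scarce everywhere. On day 2 it was at 1.26, 3.21 and 2.61 CPM under MyoD alone and at 0.492, 0.422 and 0.506 CPM under F/R/C, and on day 6 at 3.63, 7.58 and 6.47 against 1.10, 1.92 and 1.64 CPM. On day 10 the arms overlapped at 1.43, 2.68 and 1.15 against 0.755, 1.41 and 1.2 CPM. Untreated MEFs had 1.23, 0.557 and 0.761 CPM, so the late levels of both arms were near those of fibroblasts. Averaged over days Clcn1 was lower under F/R/C (log2 difference -1.34, SE 0.23, adjusted p = 8.0e-06). Scn4a was higher with F/R/C by less than 2-fold over the days (log2 difference 0.92, SE 0.30, adjusted p = 0.0085), and was apart on day 4 at 20.3, 25.6 and 38.1 against 40.9, 88.3 and 128 CPM. With the replicate block it was called on day 4 (log2 difference 1.54, adjusted p = 0.034) and day 6 (1.47, adjusted p = 0.036). Kcnj2, the inward rectifier that sets the resting potential, was apart on days 4 and 6 and was not called. On day 4 it was at 9.46, 16.3 and 6.05 CPM under MyoD alone against 27.0, 37.8 and 30.6 CPM under F/R/C. Kcna7 stayed under 1 CPM in every time-course library.

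Among the membrane-shaping genes, Sypl2 (mitsugumin of the triad junction) differed early and not on day 10. It was at 6.89, 6.86 and 10.3 CPM on day 4 under MyoD alone and at 108, 168 and 140 CPM under F/R/C (log2 difference 4.11, SE 0.74, adjusted p = 1.3e-04). On day 10 it was at 58.3, 123 and 41.9 against 77.7, 90.8 and 94.1 CPM. The arms were apart on days 2 to 8 and overlapped on day 10, where the log2 difference was 0.24 (SE 0.64, adjusted p = 0.8). Averaged over days it was 2.07 (SE 0.30, adjusted p = 5.8e-07). Bin1, which bends membrane into tubules, was higher on day 4 (578, 881 and 533 against 1208, 1673 and 1294 CPM, log2 difference 1.07, SE 0.38, adjusted p = 0.038), a call that was lost without any 1 replicate number (adjusted p from 0.09 to 0.17). Mtm1, a lipid phosphatase, was lower on day 10 (9.35, 13.0 and 9.76 against 4.57, 5.16 and 5.83 CPM, log2 difference -1.04, SE 0.29, adjusted p = 0.0048), a call that was lost without replicate 2 (-0.85, adjusted p = 0.13) and was under 2-fold with DESeq2 (-0.98), RLE size factors (-0.98), no filter (-0.93) or only the groups compared (-0.97). The calcium kinases Camk2a and Camk2b overlapped between the arms on all 5 days.

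Within a treatment few members were called between day 4 and day 10. From day 4 to day 10 under MyoD alone 1 of 37 genes was called, against 0.877% of all genes. It was Sypl2 (log2 difference 3.21, SE 0.71, adjusted p = 0.015), and its call was lost without replicate 1 (adjusted p = 0.29), without replicate 2 (adjusted p = 0.33) and with only these groups fitted (adjusted p = 0.11). The replicate numbers paired these libraries, and with the block 3 genes were called, Clcn1 (-1.48, adjusted p = 0.047) and Kcne1l (-1.90, adjusted p = 0.049) being lower beside Sypl2. Between the same days under F/R/C 2 of 37 were called, both lower, against 3.29% of all genes. They were Asph (log2 difference -1.27, SE 0.21, adjusted p = 2.8e-04) and Atp2a2 (-1.09, SE 0.25, adjusted p = 0.0044), and both calls were lost without replicate 2 (adjusted p = 0.076 and 0.15), Atp2a2 also without replicate 1 (adjusted p = 0.088), while without replicate 3 there were 4 calls. With the block Ryr3 was higher as well (1.87, adjusted p = 0.015). The median over the set was -0.73 with F/R/C, where 31 of the 37 values were negative, against -0.06 over all genes. Summed differentiated muscle markers ran from 32357 to 46095 CPM on day 4 and from 13694 to 23137 CPM in the F/R/C cultures on day 10, and their part in this shift was not tested. Under MyoD alone these markers ran from 26995 to 45537 CPM on day 4 and from 10249 to 36213 CPM on day 10. The median over the set is not given for that arm, so the shift is not shown to be particular to F/R/C.

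Several members encode forms that differ by an exon, and the files give each transcript's TPM. The sequences below are GENCODE M21 transcripts on GRCm38, shown because the shares of these forms are given next. They are given 5′ to 3′, with bases that only the named form translates in capitals and neighbouring shared coding bases in lower case. The exon of 57 bases in Cacna1s-204 (chr1:136104570-136104626, plus strand) is skipped in Cacna1s-202, and channels that lack it belong to embryonic muscle. The stretch of 324 bases in Stim1-202 (chr7:102430952-102431275, plus strand) is absent from Stim1-201 and makes the longer protein known from skeletal muscle. Its first 90 bases are shown (chr7:102430952-102431041). Atp2a2-202 ends its coding sequence in 11 bases of its own (chr5:122454294-122454304, minus strand), which gives the muscle pump, where Atp2a2-201 reads on for 149 bases (chr5:122457154-122457302, minus strand), which gives the form of other tissues.
Cacna1s-204: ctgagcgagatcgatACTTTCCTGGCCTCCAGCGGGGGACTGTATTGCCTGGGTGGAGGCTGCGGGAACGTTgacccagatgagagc
Stim1-202: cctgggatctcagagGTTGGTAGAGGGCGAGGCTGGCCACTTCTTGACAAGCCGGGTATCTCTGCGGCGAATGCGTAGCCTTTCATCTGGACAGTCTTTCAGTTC
Atp2a2-202: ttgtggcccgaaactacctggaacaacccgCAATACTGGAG
Atp2a2-201: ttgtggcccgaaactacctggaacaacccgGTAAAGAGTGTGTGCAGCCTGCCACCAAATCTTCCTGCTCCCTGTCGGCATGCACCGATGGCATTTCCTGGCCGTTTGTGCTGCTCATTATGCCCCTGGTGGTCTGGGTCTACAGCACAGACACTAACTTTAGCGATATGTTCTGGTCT
The capitals of the last pair start at the same place in the shared frame. Reads were divided between transcripts by estimation, so the shares are estimates, and they are given without a test.

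The muscle end of Atp2a2 held most of its pair in both arms by day 4. Of the TPM of Atp2a2-202 and Atp2a2-201 together, Atp2a2-202 held 10.2%, 6.32% and 13.0% in MEFs. It held 49.4%, 56.4% and 48.1% on day 2 under MyoD alone and 43.8%, 52.6% and 46.0% with F/R/C. On day 4 the shares were 64.3%, 75.7% and 62.9% against 75.4%, 80.8% and 77.2%, and on day 10 they were 62.7%, 83.0% and 56.3% against 69.1%, 78.8% and 80.9%. The arms overlapped on every day. The longer form of Stim1 held at most 2.37% of its pair in MEFs and 43.9%, 55.5% and 42.1% on day 10 under MyoD alone, against 49.6%, 44.8% and 48.6% with F/R/C, again with overlap on every day.

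The adult exon of Cacna1s held a larger share with F/R/C on several days. Among MEFs only replicate 1 had a share for Cacna1s-204, of 8.1e-05% of its pair, and it rests on 17 reads of the gene. Cacna1s-204 held 14.8%, 22.1% and 15.7% of its pair on day 4 under MyoD alone and 28.7%, 24.2% and 41.5% with F/R/C. On day 6 the shares were 23.8%, 32.6% and 27.6% against 48.5%, 42.9% and 49.6%. On day 10 they were 37.1%, 38.1% and 42.7% against 43.8%, 47.5% and 63.3%. The arms did not overlap on days 4, 6 and 10 and overlapped on days 2 and 8. In bulk iMPCs the shares were 68.5%, 77.5% and 50.2%, and in bulk myoblasts 35.0%, 44.3% and 34.3%. The total level of Cacna1s was below that of MyoD alone in every F/R/C library on days 4 and 6 and overlapped on day 10. Averaged over the 5 days the share was 11.4 percentage points higher with F/R/C, from 7.92 to 14.3 when 1 replicate number was left out. Sorted iMPCs ran from 0% to 64.0%, at 5.79 to 15.1 CPM of Cacna1s, so few reads stand behind those shares.

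**Figure D4:**
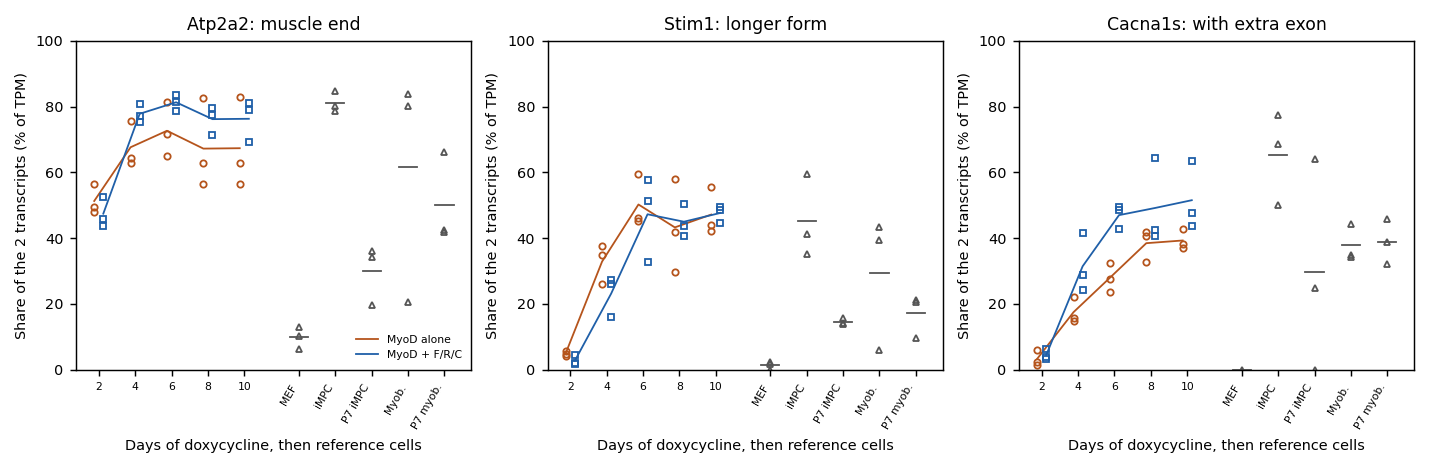
Points are single libraries, lines join daily means for MyoD alone (circles) and MyoD with F/R/C (squares), and triangles with a bar are the reference groups. Each panel gives the share of one annotated form in the TPM of a pair, in percent. The Atp2a2 and Stim1 shares climb together in both arms, and the Cacna1s share lies higher under F/R/C on days 4, 6 and 10.

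The products of Asph differed between fibroblasts and myotubes. The short transcripts of 5 exons, Asph-201 and Asph-206, encode proteins of 245 and 207 residues, in the size range of junctin. Asph-208 has 14 exons but encodes only 272 residues, so it is not a long form. Asph-202, with 24 exons and 741 residues, is a long form, and its share is not given. Asph-201 held 0.842% of the TPM of Asph in MEFs on average, 19.8% on day 6 under MyoD alone and 29.3% on day 6 with F/R/C. Asph-206 went from 0.256% in MEFs to 23.0% and 38.2% on those days. Asph-208 went from 38.6% in MEFs to 17.4% and 13.8%. On day 6 Asph-206 ran from 18.1% to 33.0% in the MyoD libraries and from 35.0% to 44.0% in the F/R/C libraries, without overlap. The summed TPM of Asph-201 and Asph-206 was 0.962, 1.08 and 1.60 in MEFs. It was above that of MyoD alone in every F/R/C library on days 4 and 6. On day 10 it was 24.4, 66.9 and 17.2 under MyoD alone against 24.0, 24.1 and 56.5 under F/R/C, which overlapped, so the fall of the whole locus is not a measured fall of these forms.

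The ratios between related genes, which can be compared because TPM is per length, set each gene against its relative. The log2 TPM ratio of Casq1 to Casq2 was -6.19, -7.09 and -6.69 on day 4 under MyoD alone and -1.01, -1.05 and -0.91 with F/R/C. On day 10 it was -3.91, -4.52 and -4.67 against -1.38, -1.59 and -0.89, with no overlap on any day. Casq2 was thus the more abundant calsequestrin in every treated library of both arms, by a smaller margin with F/R/C. The ratio of Atp2a1 to Atp2a2 was -0.81, -0.89 and -0.25 on day 2 under MyoD alone, 1.36, 1.89 and 2.05 on day 6, and 0.52, 0.62 and 0.89 on day 10. Under F/R/C it was 1.38, 1.77 and 1.77 on day 10, above every MyoD library, although the arms overlapped on days 2 to 8. The ratio of Ryr1 to Ryr3 was 5.87, 6.21 and 5.76 on day 10 under MyoD alone and 5.13, 4.08 and 4.11 with F/R/C, without overlap. Days 2 and 8 gave the same order without overlap, while the arms overlapped on days 4 and 6, with means of 6.26 under F/R/C and 4.94 under MyoD alone on day 6. Ryr1 exceeded Ryr3 in every treated time-course library.

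**Figure D5:**
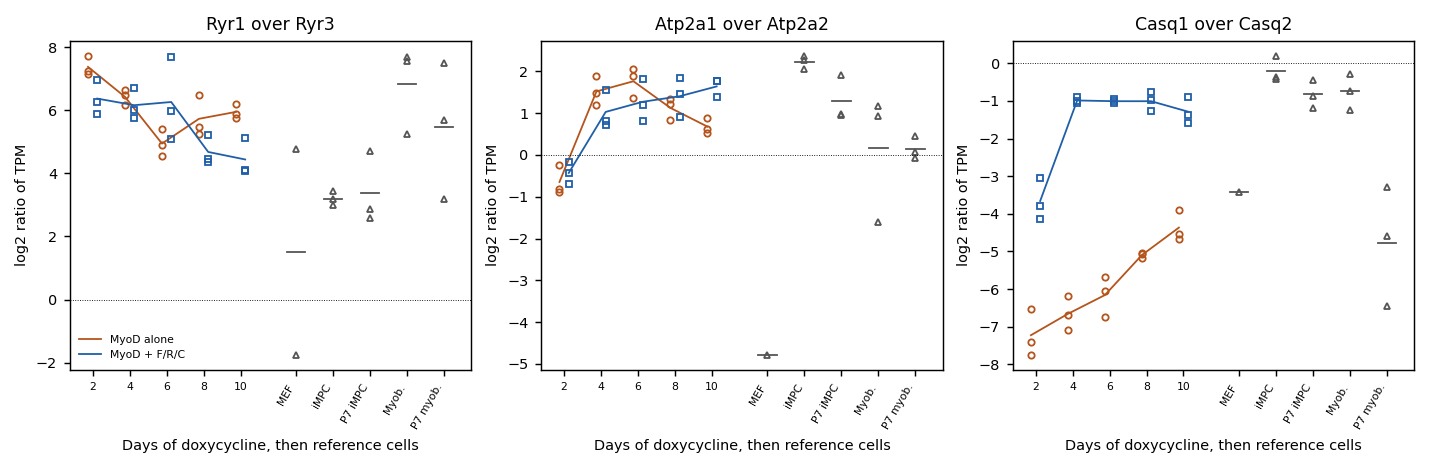
Each panel gives the log2 ratio of the TPM of the 2 named genes in single libraries, with lines through daily means for MyoD alone (circles) and MyoD with F/R/C (squares) and with the reference groups as triangles. A library is drawn where both genes had more than 3 reads. The Casq1 to Casq2 ratio separates the arms by 3.08 to 5.67 log2 units, and the Atp2a1 to Atp2a2 ratio parts on day 10 alone.

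Established bulk iMPCs differed from day 10 F/R/C cultures in 5 of 37 genes, 3 higher and 2 lower, against 9.57% of all genes. Pvalb, at 125, 140 and 71.6 CPM, was higher than the 2.78, 2.63 and 11.2 CPM of the cultures (log2 difference 4.33, SE 0.81, adjusted p = 3.6e-04). Trdn, at 174, 123 and 153 CPM against 18.9, 22.6 and 39.1 CPM, was higher as well (2.48, SE 0.80, adjusted p = 0.026), as was Casq1, at 1131, 1012 and 830 CPM against 132, 156 and 402 CPM (2.11, SE 0.70, adjusted p = 0.03). Kcne1l, at 1.64, 0.451 and 2.72 CPM, was lower (-2.33, SE 0.67, adjusted p = 0.012), and so was Sln, at 5.5, 3.19 and 8.09 CPM (-2.15, SE 0.69, adjusted p = 0.026). Without replicate 1 or replicate 2 only Pvalb was called, and without replicate 3 there were 8 calls. The voltage sensor Cacna1s, at 334, 247 and 255 CPM, overlapped the 156, 284 and 325 CPM of the F/R/C cultures and was not called.

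Bulk iMPCs had 4 of 37 genes above bulk myoblasts, against 10.9% of all genes. These were Pvalb (125, 140 and 71.6 against 4.13, 1.23 and 0.0728 CPM, log2 difference 5.98, SE 0.88, adjusted p = 8.1e-06), Ryr3 (95.9, 37.9 and 71.0 against 3.55, 20.4 and 0.218 CPM, 3.07, SE 0.80, adjusted p = 0.0036), Sypl2 (1.78, SE 0.66, adjusted p = 0.037) and Kcne1l (1.75, SE 0.69, adjusted p = 0.049). In myoblast replicate 3, which had few differentiation markers, most members were low. Without it the Kcne1l call was lost (adjusted p = 0.21), without replicate 2 of the myoblasts 9 genes were called, and 1 gene was called without replicate 1 of both groups or with only these groups fitted, Pvalb. Pvalb was called in both comparisons of bulk iMPCs under every alternative tried.

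Sorted iMPCs held little of the machinery. In sorted iMPCs 34 of 37 genes were lower than in bulk iMPCs, where 20.5% of all genes were lower, and the fold changes of all 37 were negative (median -3.35, against -0.13 over all genes). The largest differences were in Pvalb (0.563, 2.55 and 1.76 against 125, 140 and 71.6 CPM, log2 difference -6.11, SE 0.89, adjusted p = 2.7e-06) and Trdn (1.17, 5.58 and 2.33 against 174, 123 and 153 CPM, -5.62, SE 0.94, adjusted p = 1.4e-05). Not called were Ryr3 (-1.72, SE 0.76, adjusted p = 0.06), Clcn1 (-0.63, SE 0.51, adjusted p = 0.31) and Jsrp1 (-0.44, SE 0.47, adjusted p = 0.45). Some members kept a substantial level, such as Ryr1 at 154, 193 and 203 CPM and Atp2a1 at 385, 379 and 646 CPM. The summed differentiated muscle markers ran from 1414 to 1949 CPM in sorted and from 22483 to 29268 CPM in bulk iMPCs. Sorted libraries were also quantified with another effective length setting, so that setting and the sort cannot be told apart.

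Against sorted myoblasts, sorted iMPCs had 3 genes higher (12.4% of all genes were) and 21 lower (17.6%). Higher were Pvalb (0.563, 2.55 and 1.76 against 0, 0.247 and 0.163 CPM, log2 difference 3.55, SE 0.99, adjusted p = 0.004), Casq1 (22.8, 48.2 and 12.4 against 9.07, 5.29 and 7.56 CPM, 1.93, SE 0.71, adjusted p = 0.025) and Sypl2 (1.90, SE 0.73, adjusted p = 0.031). Casq1 was lost without replicate 1 (adjusted p = 0.13) or 2 (0.39), and so was Sypl2 (0.16 and 0.38), and Pvalb was at 0.051 without replicate 2. Sorted myoblast replicate 3 stood apart for several genes, such as Ryr1 at 1110 CPM against 269 and 246 CPM. Without it 16 genes were called in place of 24, and the lower calls of Ryr1 (-0.49, adjusted p = 0.58), Cacng1, Casq2, Jsrp1, Kcnj11, Bin1 and Camk2a and the higher call of Casq1 (adjusted p = 0.058) were lost. Lowest were Jph2 (11.2, 20.6 and 14.0 against 178, 294 and 501 CPM, -4.41, SE 0.44, adjusted p = 3.6e-09) and Trdn (1.17, 5.58 and 2.33 against 24.0, 39.6 and 125 CPM, -4.37, SE 0.89, adjusted p = 1.5e-04). Pvalb, Casq1 and Sypl2, higher here, were also higher in F/R/C cultures than with MyoD alone. The differentiated muscle markers ran from 1414 to 1949 CPM against 4425 to 15563 CPM, and their part was not tested.

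Among 95 other genes of the same pathways, 85 were tested and 29 differed between the arms over the days, 16 higher and 13 lower, where 22.1% of all genes differed. Higher with F/R/C were Kcnj8, a pore of the potassium channel gated by ATP (3.33 against 0.0260 CPM as means over days), Pln, an inhibitor of Atp2a2 (1.18 against 0.0472 CPM), Kcnc1 (27.4 against 1.91 CPM, log2 difference 4.11, SE 0.32, adjusted p = 1.6e-12) and Stac2, a relative of Stac3 (16.6 against 1.27 CPM, 3.73, SE 0.42, adjusted p = 4.5e-09). Lower were the inositol trisphosphate receptor Itpr3 (14.8 against 97.4 CPM, -2.95, SE 0.26, adjusted p = 3.1e-11), Cacna2d2 (0.211 against 1.5 CPM), Cacna2d4 (0.259 against 0.720 CPM) and S100a1, a calcium sensor that binds the release channel (9.39 against 38.0 CPM, -1.83, SE 0.21, adjusted p = 8.7e-09). On day 10, 10 were higher and 13 lower (23.3% of all genes differed), with Kcnj8, Cacng4, Pln and Kcnc1 highest and Itpr3, Mcub, Cacna2d2 and S100a1 lowest. Mcub, an inhibitory partner of Mcu, was at 2.25 CPM under F/R/C and 19.1 CPM under MyoD alone on that day (-3.07, SE 0.65, adjusted p = 4.4e-04). The median of the 85 was -0.24 over the days, against -0.01 in the 37 and -0.03 over all genes.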

How the data were processed

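Poly-A RNA was sequenced with a stranded TruSeq kit, per the labels' protocols. The submitters' processing notes name bcl2fastq 2.19, Trimmomatic 0.36, kallisto 0.44, edgeR 3.28 and the build GRCm38.p6. The transcript release and the strand setting are not given in the sources used here. The deposited tables hold estimated counts and TPM per transcript, per the file headers. TPM was computed by the authors by length and library size. Of 121843 transcripts, 121104 matched GENCODE M21, which need not be the authors' release.

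Estimated counts were summed per gene and rounded. All 45 libraries entered 1 quasi-likelihood fit in edgeR 4.0.16 (R 4.3.3) with TMM scaling, 30 residual degrees of freedom and Benjamini-Hochberg adjustment over 17325 genes. A call needed an adjusted p under 0.05 and at least 2-fold. CPM are counts scaled to a common effective library size. Transcript shares and gene ratios came from TPM. On simulated data for F/R/C against MyoD alone on day 10, 200 of 17325 genes were changed 4-fold, and 137 were called, 132 of them truly changed (66% recovered) and 5 not. The simulated libraries were drawn independently, without the deviations that same-numbered replicates share. These numbers therefore do not cover such deviations, other effect sizes or other days.

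Same-numbered replicates deviated together on days 2, 4 and 6 between the arms (lowest correlation 0.22) and between days 4 and 10 within each arm (lowest 0.19), so the numbers pair those libraries by the data. Blocked values are given there only where the block changed a call. The other values printed for those comparisons come from the fit without the block. Alternatives were DESeq2 1.42.0, RLE size factors, no filter, only the groups compared, the replicate block and each replicate number left out. Leaving out MEF replicate 1 or 3, bulk myoblast replicate 2 or 3 or sorted myoblast replicate 3, and shares from estimated counts, were added after seeing the data. Any of the 37 members could be named. By rule, values per library were given for up to 10 members called over the days, those called in the change of effect, the Ryr, Atp2a and Casq pairs, and the 2 most changed each way in other comparisons, and 4 pathway genes each way were named. Other members' values per library were printed after they were seen. The members and lists were chosen with earlier results of these data known. Intervals and floors cover counting error only.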

Additional observations from a re-analysis of the deposited data

Results flagged for a closer look

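The effect of F/R/C differed between day 2 and day 10 for 4 of the 37 genes by a test of the difference itself in edgeR. Kcne1l, an accessory potassium channel subunit, had a log2 difference of 4.65 (SE 0.99, adjusted p = 0.0059), with an effect of -0.18 on day 2 and 4.47 on day 10. Pvalb, the cytosolic calcium buffer, had 6.62 (SE 1.81, adjusted p = 0.017), with 1.55 on day 2 and 8.16 on day 10, where 1 read was found with MyoD alone. Trdn, which anchors the release channel, had -3.54 (SE 1.14, adjusted p = 0.047), and Asph, over all products of its locus, had -1.04 (SE 0.29, adjusted p = 0.026). Each of the 4 calls was lost without replicate 1 and without replicate 2, with adjusted p from 0.077 to 0.38.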

How the results depend on the processing

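Of the 8 genes called over the days, Cacng1 alone fell short under an alternative, and the other 7 were called under all of them. The Trdn log2 difference on day 10 was 0.028 without replicate 2 and -1.74 without replicate 3. With only the groups compared fitted, members called were 7, 9, 10 and 6 on days 2, 4, 6 and 8, 0 from day 4 to day 10 under MyoD alone and 1 for bulk iMPCs against myoblasts, and genes called were 1420 on day 2, 2019 for MyoD against MEFs, 0 from day 4 to day 10 under MyoD alone, 1265 for bulk iMPCs against myoblasts and 3424 between sorted groups. In that fit under MyoD alone, 2249 of 14585 genes and 10 of 35 members had an unadjusted p under 0.05 in edgeR. For the change in effect from day 2 to day 10, RLE size factors gave 2 members, and no filter gave 2 members and 649 genes. No filter gave 1 member from day 4 to day 10 with F/R/C. Without bulk myoblast replicate 2, 9 members and 3902 genes were called for bulk iMPCs against myoblasts. DESeq2 gave 2 members and 306 genes from day 4 to day 10 under MyoD alone and 7 members for bulk iMPCs against myoblasts. The replicate block gave 5 members on day 8, 3 members and 342 genes from day 4 to day 10 under MyoD alone, 7 members for bulk iMPCs against myoblasts and 1615 genes for the change in effect. Leaving out 1 replicate number gave, for members, 0 to 2 on day 2, 3 to 5 on day 6, 3 to 10 on day 10, 0 to 3 for the change in effect, 0 to 1 and 0 to 4 from day 4 to day 10 under MyoD alone and F/R/C, 1 to 8 for bulk iMPCs against F/R/C and 1 to 4 against myoblasts. For genes it gave 233 to 389, 1077 to 1609, 1310 to 1710, 1926 to 2540 and 2563 to 3982 on days 2 to 10, 58 to 685 for the change in effect, 1445 to 3861 for MyoD against MEFs, 5 to 22 and 42 to 1627 from day 4 to day 10, 700 to 1993 for bulk iMPCs against F/R/C and 2211 to 3500 against myoblasts. The cause was not tested. Depth limits Pvalb, Kcne1l, Kcna7 and Clcn1, which had few reads.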
